A study of Mus musculus with 41 samples.

Results

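H3K4me1, monomethylated lysine of histone H3, was compared in mouse primary cortical neurons labelled LSD1n WT after 1 h in a 55 mM KCl bath and at 0 h. The members were the regions of the 2 deposited H3K4me1 lists on chromosomes 1 to 19, which held 44683 regions at 1 h and 37106 at 0 h, or 81789 of the 488881 regions and sites on all chromosomes in the 27 peak lists of the series. A region was called gained if no 0 h region overlapped it by at least 1 bp, and lost if no 1 h region overlapped it; the others were called kept 1 h or kept 0 h regions.

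H3K4me1 is laid down mainly at enhancers, where it is found both at elements in use and at elements held ready. Potassium chloride depolarizes neurons and opens voltage-gated calcium channels, which starts transcription of activity-regulated genes within the hour. H3K4me2 marks promoters and the more open enhancers, RNA polymerase II (Pol II) is found at transcribed promoters and at many active enhancers, and LSD1 (Kdm1a) removes methyl groups from H3K4me1 and H3K4me2. LSD1n is a splice form of LSD1 found in neurons.

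The series profiled histone marks, Pol II and LSD1 by chromatin immunoprecipitation and sequencing (ChIP-seq), in cultures of 10 days in vitro. Each group compared here had 1 library, so no difference between libraries could be tested; H4K20me1 at 1 h in LSD1n WT, used only for closing observations and regions of every target, had 2. H3K4me1 was also listed in LSD1n KO neurons at 1 h and 0 h, H3K4me2 in LSD1n WT neurons at 1 h and 0 h, Pol II in LSD1n KO and LSD1n WT neurons at 1 h and 0 h, and LSD1 in neurons labelled wild type at 1 h and 0 h and in LSD1n WT neurons at 0 h. Flag-tagged LSD1n and LSD1c were captured with an anti-Flag antibody at 1 h and 0 h in cultures labelled R26/LSD1n and R26/LSD1c. The labels do not say what drives the tagged proteins, or how many animals gave each culture. Neuronal identity was not checked, because no gene annotation of the mm9 build was used here. Values in parentheses after a share are exact 95% binomial intervals, those after a log2 ratio of 2 numbers are exact 95% intervals for counts, and both cover counting error only.

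More of the genome was listed as H3K4me1 after KCl, and the ratio of region numbers rose with region width. The lists covered 49.9 Mb at 1 h and 36.7 Mb at 0 h, from libraries of 23440511 tags at 1 h and 23973912 tags at 0 h that shared a calling threshold of 21 tags per peak. Tags in regions made up 9.33% of the library at 1 h and 6.57% at 0 h. The log2 ratio of region numbers, 1 h over 0 h, was 0.27 (0.25 to 0.29).

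The number of the narrowest regions was nearly equal at the 2 times. Regions as wide as a single called peak, the narrowest in the lists, numbered 14916 at 1 h and 14824 at 0 h, a log2 ratio of 0.01 (-0.02 to 0.04). Regions of 1 to 2 kb numbered 10430 at 1 h and 7555 at 0 h, a log2 ratio of 0.47 (0.42 to 0.51). Those of 2 to 4 kb numbered 4487 at 1 h and 2757 at 0 h, a log2 ratio of 0.70 (0.63 to 0.77). Each wider band thus had a larger ratio than the one below it, with intervals that did not overlap between these bands. At 4 kb or wider there were 910 regions at 1 h and 465 at 0 h, a log2 ratio of 0.97 (0.81 to 1.13), and at 10 kb or wider there were 38 at 1 h and 22 at 0 h.

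The excess was spread over the genome. All 19 chromosomes had more regions at 1 h, with log2 ratios of numbers between 0.20 and 0.33 and every interval above 0.

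Gained regions were numerous and small. Of the 1 h regions 22050, or 49.3% (48.9 to 49.8), were gained, and 11417 of these (51.8%) were single called peaks. Of the 0 h regions 13798, or 37.2% (36.7 to 37.7), were lost, and 8854 of these (64.2%) were single called peaks. The median gained region and the median lost region were each a single called peak in width, against a median of 1145 bp for kept 1 h regions and 833 bp for kept 0 h regions. A wide region meets a 1 bp overlap more easily than a narrow one, so width and class are tied.

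**Figure D1:**
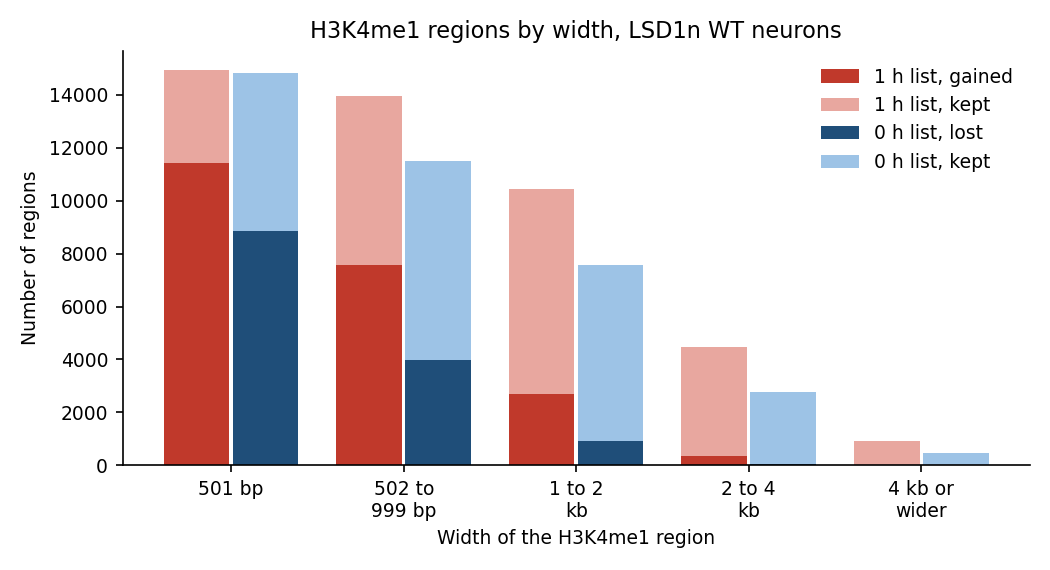
Number of H3K4me1 regions on chromosomes 1 to 19 (vertical axis) in 5 bands of width (horizontal axis), with the 1 h list as the left bar and the 0 h list as the right bar of each pair. Dark parts are gained or lost regions and light parts kept regions. The leftmost pair, of single called peaks, is nearly level (14916 and 14824), and the 1 h bar is the taller in every wider band.

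The share gained or lost was lower in each wider band. Of the single-peak regions 76.5% (75.9 to 77.2) at 1 h were gained, and 59.7% (58.9 to 60.5) at 0 h were lost. Of the 1 to 2 kb regions 25.95% (25.1 to 26.8) at 1 h were gained, and 12.02% (11.3 to 12.8) at 0 h were lost. Of the regions of 4 kb or wider 4 of 910 at 1 h were gained, and 0 of 465 at 0 h were lost, with an exact upper limit of 0.790%. In every band the gained share exceeded the lost share by more than counting error, apart from the last, where the intervals met. The 1 h list was also the longer one. With equal numbers of the widest regions the shares came nearer, at 40.7% (40.0 to 41.4) gained and 38.7% (38.0 to 39.4) lost.

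Many gained regions lay near a region already called. The median distance from a gained region to the nearest 0 h region was 6.94 kb, 21.7% of gained regions lay within the smallest distance at which the caller kept 2 peaks apart, and 13.4% lay beyond 50 kb. The median distance from a lost region to the nearest 1 h region was 4.08 kb, 31.6% lay within that smallest distance, and 10.2% lay beyond 50 kb.

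Kept regions carried nearly as much of the added length as gained ones. Gained regions held 15.8 Mb, and kept 1 h regions held a further 13.8 Mb that was not covered at 0 h. Lost regions held 8.63 Mb, and kept 0 h regions held 7.80 Mb that was not covered at 1 h. The net excess at 1 h was 13.2 Mb, of which 6.03 Mb (45.6%) lay in kept regions. The length covered at both times was 20.2 Mb, or 40.6% of the 1 h length and 55.2% of the 0 h length.

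Where H3K4me1 was called at both times, it usually covered more at 1 h. Overlapping regions of the 2 lists were joined into blocks, and 22246 of the 58053 blocks held regions of both lists. Of these, 3785 (17%) were widened, with at least 2 times the covered length at 1 h, and 1140 (5.12%) were narrowed, with at most 0.5 times, a ratio of 3.32 widened blocks for each narrowed one. More length was covered at 1 h in 60.6% of the blocks, less in 32.5% and the same in 6.90%. The median log2 ratio of length, 1 h over 0 h, was 0.22, with quartiles of -0.17 and 0.73.

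**Figure D2:**
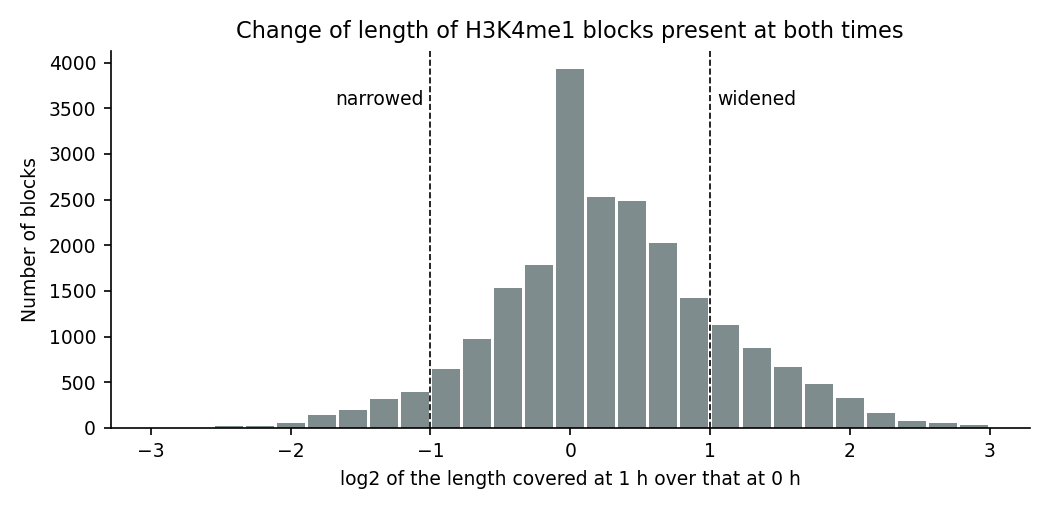
Number of blocks (vertical axis) by the log2 ratio of the H3K4me1 length covered at 1 h over that at 0 h (horizontal axis), for the 22246 blocks called at both times; the outermost bars also hold the blocks beyond them. Dashed lines at -1 and 1 mark the limits for narrowed (1140) and widened (3785) blocks, and the right-hand side holds more blocks than the left.

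Most blocks paired 1 region at 1 h with 1 at 0 h. In these 20936 blocks the ends were compared: both ends lay further out at 1 h in 5037 of these (24.1%) and further in at 1 h in 2195 (10.5%), and the median addition was 78 bp per end. Joining and splitting were less common: in 924 blocks 1 region at 1 h replaced several 0 h regions, and in 327 blocks 1 region at 0 h was split into several at 1 h. By the geometric mean of the 2 lengths, 23.0% of blocks of 1 to 2 kb were widened and 6.33% narrowed. Of the 602 blocks of 4 kb or wider, 2.82% were widened and 0 were narrowed, while 72.4% covered more at 1 h and 27.6% less.

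The blocks with the most added and removed length show the scale of the largest changes. On chromosome 14 the block chr14:67665649-67674805 (mm9) had 9157 bp of H3K4me1 at 1 h and 2875 bp at 0 h. On chromosome 8 chr8:67203275-67210091 had 6817 bp at 1 h and 1134 bp at 0 h. Neither block had H3K4me2 at either time. The third, chr4:128369162-128376795, had 7291 bp at 1 h and 1741 bp at 0 h, with H3K4me2 over 6.56% of its length at 0 h only. On chromosome 10 chr10:39095175-39110081 had 9660 bp at 1 h, against 14827 bp at 0 h, and so the most length removed. On chromosome 7 chr7:19541929-19550020 had 3792 bp at 1 h, against 7523 bp at 0 h. There H3K4me2 lay over 10.2% of the length at 1 h and 18.2% at 0 h, with 1 LSD1 site at 0 h only. On chromosome 12 chr12:120444243-120448297 was a single called peak at 1 h, against 4055 bp at 0 h, and held no H3K4me2, Pol II or LSD1 at either time.

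The widest gained regions differed in what else was called there. The widest, chr3:60331306-60335664 (4359 bp), had H3K4me2 over 53.7% of its length at 1 h and 55.6% at 0 h and 1 Pol II site at each time, so both preceded its H3K4me1 call. The next, chr5:143570720-143574968 (4249 bp), had H3K4me2 over 67.1% of its length at 1 h and 93.7% at 0 h and no Pol II site. The third, chr12:96972943-96977159 (4217 bp), had no H3K4me2 and no Pol II, and 1 LSD1 site at 1 h against 0 at 0 h. Of the 3 widest lost regions, chr12:25917326-25920342 (3017 bp) and chr5:66694413-66697315 (2903 bp) had no H3K4me2, Pol II or LSD1 at either time. The remaining one, chr8:87467507-87470405 (2899 bp), kept H3K4me2 over 79.7% of its length at 1 h, against 94.4% at 0 h, and had 1 Pol II site and 1 LSD1 site at 1 h against 0 of each at 0 h.

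The widest H3K4me1 region of the 1 h list, chr11:3030424-3099944 (69.5 kb), was covered wholly in all 4 H3K4me1 lists. H3K4me2 and H3K36me3 covered at least 99% of its length at both times. That region held no Pol II, LSD1, Flag-LSD1n or Flag-LSD1c site at either time, and so was not among the regions of every target. A region listed for every one of the series' 8 targets was counted as a region of every target. There were 99 such regions at 1 h and 61 at 0 h, 11 of them gained and 3 lost. The next widest, chr8:87251261-87271469, was 20.2 kb at 1 h, with 78.2% of that covered at 0 h.

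H3K4me2 was called at a minority of gained regions, and usually it was there before KCl. The H3K4me2 lists came from shallow libraries, with 6990017 tags at 1 h and 9418008 at 0 h, and whether depth sets the shares was not tested. Gained regions overlapped the 1 h H3K4me2 list in 15.6% (15.1 to 16.1) of cases and the 0 h list in 19.1% (18.6 to 19.6). By history, 11.6% of gained regions had H3K4me2 at both times, 3.96% at 1 h only, 7.45% at 0 h only and 77.0% at neither. Kept 1 h regions overlapped the 1 h list in 31.9% (31.3 to 32.5) and the 0 h list in 37.1% (36.5 to 37.7).

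Lost regions had less H3K4me2 than kept 0 h regions at each matched width up to 4 kb. At single-peak width, H3K4me2 at 0 h overlapped 10.5% (9.89 to 11.2) of lost and 25.3% (24.2 to 26.4) of kept 0 h regions, and H3K4me2 at 1 h overlapped 9.92% (9.38 to 10.5) of gained and 16.1% (14.9 to 17.3) of kept 1 h regions. Among 1 to 2 kb regions, H3K4me2 at 0 h overlapped 13.3% (11.2 to 15.7) of lost regions and 35.97% (34.8 to 37.1) of kept 0 h regions. Among 1 to 2 kb regions at 1 h, H3K4me2 overlapped 27.3% (25.6 to 29.0) of gained and 32.2% (31.1 to 33.2) of kept regions. Gained regions of this width thus came nearer to their kept class than lost regions did to theirs. The H3K4me2 length inside gained blocks was lower at 1 h, with a log2 ratio of -0.35, as in widened (-0.29), lost (-0.39) and all H3K4me2 regions (-0.41).

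**Figure D3:**
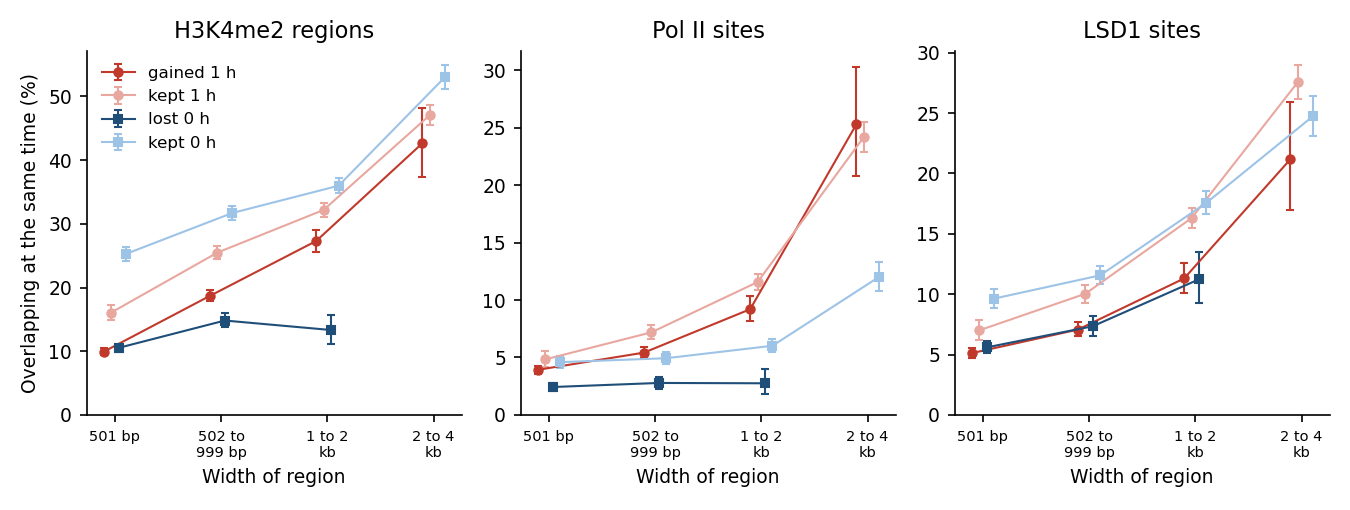
Percent of H3K4me1 regions (vertical axes) that overlap an H3K4me2 region, a Pol II site or an LSD1 site of the same time, by width of the H3K4me1 region (horizontal axes). Points are gained and kept 1 h regions with the 1 h lists and lost and kept 0 h regions with the 0 h lists, and bars are exact 95% binomial intervals; lost regions of 2 to 4 kb, 47 in all, are not drawn. Lost regions lie lowest for H3K4me2 and Pol II at 1 to 2 kb.

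Pol II was called more often inside H3K4me1 after KCl, with the highest ratio in blocks called at both times and neither widened nor narrowed. The names of the deposited Pol II files give the opposite genotype to their labels; the labels were followed, and the lists labelled LSD1n KO are given beside them. The Pol II lists labelled LSD1n WT held 13839 sites at 1 h from 21641320 tags and 12718 at 0 h from 14622895 tags. In blocks of similar width at both times there were 2198 Pol II sites at 1 h and 1554 at 0 h, a log2 ratio of 0.50 (0.41 to 0.59). Outside H3K4me1 there were 9541 sites at 1 h and 9406 at 0 h, a log2 ratio of 0.02 (-0.02 to 0.06). With the lists labelled LSD1n KO these ratios were 0.48 (0.39 to 0.57) in similar blocks and 0.11 (0.07 to 0.15) outside H3K4me1. The part of depth in the ratios was not tested.

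Gained H3K4me1 blocks did not have the highest Pol II ratio. Gained blocks held 964 Pol II sites at 1 h and 831 at 0 h, a log2 ratio of 0.21 (0.08 to 0.35), and widened blocks 694 at 1 h and 574 at 0 h, 0.27 (0.11 to 0.44). Lost blocks held 329 at 1 h and 267 at 0 h, 0.30 (0.06 to 0.54). Narrowed blocks held 113 at 1 h and 86 at 0 h, 0.39 (-0.02 to 0.82). The interval in similar blocks lay above that in gained blocks with these lists, but with the lists labelled LSD1n KO the intervals overlapped, at 0.48 (0.39 to 0.57) in similar and 0.29 (0.17 to 0.42) in gained blocks. With the lists labelled LSD1n KO the ratio in lost blocks was 0.22 (-0.01 to 0.45). Of the Pol II sites called at 1 h only, 24.3% (23.1 to 25.6) overlapped a kept 0 h region and 8.82% (8.03 to 9.67) a gained one. Of the Pol II sites called at both times, 11.2% (10.6 to 11.9) overlapped a kept 0 h region and 8.65% (8.08 to 9.24) a gained one.

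Seen from the H3K4me1 side, shares were first taken over all widths. Pol II at 1 h overlapped 5.42% (5.12 to 5.73) of gained and 12.4% (11.9 to 12.8) of kept 1 h regions. Pol II at 0 h had overlapped 4.79% (4.52 to 5.08) of the gained regions and 9.09% (8.72 to 9.47) of the kept 1 h regions. Over all widths, with no match of width, kept 1 h regions with Pol II at 1 h only were 5.16% of the class. Gained regions with Pol II at 1 h only were 1.65% of theirs. Lost regions overlapped Pol II in 3.04% (2.76 to 3.34) of cases at 1 h and 2.56% (2.30 to 2.84) at 0 h. Most regions of every class had neither H3K4me2 nor Pol II at their own time. Over all widths these were 82.6% of gained, 64.9% of kept 1 h, 87.5% of lost and 64.6% of kept 0 h regions. At single-peak width they were 88.4% of gained, 82.0% of kept 1 h, 88.9% of lost and 74.1% of kept 0 h regions.

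In kept H3K4me1 regions of 1 to 2 kb more Pol II sites were called near the centre at 1 h. In the 7723 kept 1 h regions of 1 to 2 kb, 375 Pol II sites at 1 h and 229 at 0 h were centred within 250 bp of the region's centre, a log2 ratio of 0.71 (0.47 to 0.96). In windows of the same total length 750 to 1000 bp from the centre there were 270 at 1 h and 262 at 0 h, 0.04 (-0.21 to 0.29). For regions of 1 to 2 kb these windows lie near or beyond the region's ends, largely outside the region. The stretch between the centre and these windows was given no ratio, so middle and edge of a region were not compared. In kept 0 h regions of that width, placed by the list from before KCl, the centre held 293 sites at 1 h and 154 at 0 h, 0.93 (0.64 to 1.22). Gained regions of 1 to 2 kb showed the same direction at the centre, with 92 sites at 1 h and 61 at 0 h, 0.59 (0.11 to 1.08). The lists labelled LSD1n KO gave 0.68 (0.46 to 0.90) at the centre of kept 1 h regions and 0.16 (-0.09 to 0.41) 750 to 1000 bp away. In kept 1 h regions of single-peak width the centre ratio was 0.13 (-0.26 to 0.51) with the lists labelled LSD1n WT and 0.51 (0.15 to 0.89) with those labelled LSD1n KO, so the call there depends on the pair of lists. In kept 0 h regions of 2 to 4 kb the ratio was 0.78 (0.41 to 1.15) at the centre and also above 0 from 750 to 1000 bp away, 0.58 (0.07 to 1.10).

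**Figure D4:**
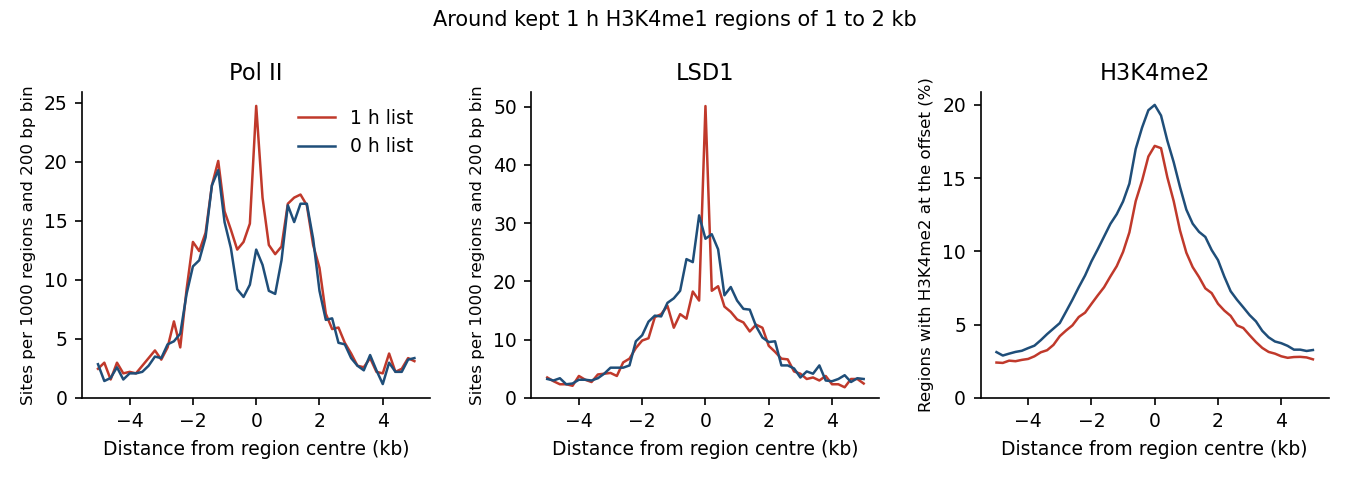
Pol II sites, LSD1 sites (per 1000 regions and 200 bp bin) and H3K4me2 (percent of regions covered at the offset) on the vertical axes, by distance from the centre of 7723 kept 1 h H3K4me1 regions of 1 to 2 kb (horizontal axes, kb), with the 1 h list in red and the 0 h list in blue. Pol II reaches 24.7 at the centre at 1 h and 12.6 at 0 h, and the 2 lines run together beyond about 1 kb. LSD1 reaches 50.1 at 1 h and 27.3 at 0 h in the central bin.

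LSD1 sites sat more tightly at the centres of 1 to 2 kb regions at 1 h, while the direction of their number depended on the 0 h list. The LSD1 lists of wild type neurons held 18258 sites at 1 h from 19266695 tags and 22305 at 0 h from 24377237 tags, of which 4672 were called at both times, 25.6% of those at 1 h. In the central 200 bp bin of kept 1 h regions of 1 to 2 kb there were 50.1 LSD1 sites per 1000 regions at 1 h and 27.3 at 0 h. The same bin held 26.97 at 1 h and 18.8 at 0 h in gained regions of that width, and 29.7 at 1 h and 18.7 at 0 h in lost ones. Within 250 bp of the centre the numbers were close, 601 at 1 h and 568 at 0 h, a log2 ratio of 0.08 (-0.09 to 0.25). From 750 to 1000 bp away there were 263 at 1 h and 357 at 0 h, -0.44 (-0.68 to -0.21). At single-peak width, kept 0 h regions had -0.32 (-0.53 to -0.11) within 250 bp and -0.31 (-0.54 to -0.08) from 750 to 1000 bp away. Their central 200 bp bin held 30.0 sites per 1000 regions at 1 h and 22.8 at 0 h, so tightening there depended on the window. Fewer tags were sequenced at 1 h than at 0 h, and the part of depth was not tested. LSD1 in LSD1n WT neurons at 0 h, with 13207 sites from 17993780 tags, gave another picture of kept 1 h regions of 1 to 2 kb. The wild type libraries of both times share a title prefix, while this list has another prefix and another genotype label. In ratios against it, time cannot be told apart from prefix and label. Against that list the 601 sites at the centre at 1 h stood against 279 at 0 h, 1.11 (0.90 to 1.32), and the 263 sites 750 to 1000 bp away against 244 at 0 h, 0.11 (-0.15 to 0.37).

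Gained regions had fewer LSD1 sites at 1 h than at 0 h in the wild type lists. This was not so against LSD1 in LSD1n WT, a list of another title prefix and label. They overlapped LSD1 of wild type neurons in 6.80% (6.47 to 7.14) of cases at 1 h and 9.44% (9.06 to 9.84) at 0 h, and LSD1 of LSD1n WT neurons in 6.33% (6.01 to 6.66) at 0 h. In the wild type lists gained blocks held 1239 sites at 1 h and 1683 at 0 h, a log2 ratio of -0.44 (-0.55 to -0.34). In similar blocks the ratio was -0.14 (-0.21 to -0.06), and over the whole lists -0.29 (-0.32 to -0.26). The interval of gained blocks lay below both, but it overlapped that of widened blocks, at -0.39 (-0.53 to -0.25). Within 250 bp of the centres of gained regions of 1 to 2 kb there were 125 sites at 1 h and 166 at 0 h, -0.41 (-0.76 to -0.07), against 0.08 in kept 1 h regions. At single-peak width the ratio was -0.10 (-0.29 to 0.08) in gained and -0.24 (-0.53 to 0.05) in kept 1 h regions. There the order was reversed and the intervals overlapped. Lost regions overlapped LSD1 in 5.39% (5.02 to 5.78) at 1 h and 6.52% (6.11 to 6.94) at 0 h, the lowest of the 4 classes.

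The tagged proteins had more sites at 1 h, in lists that were small. Flag-LSD1n overlapped 1.55% (1.39 to 1.72) of gained regions at 1 h and 0.295% (0.228 to 0.376) at 0 h, and its whole list held 4336 sites at 1 h and 802 at 0 h. Its log2 ratio was 2.34 (1.91 to 2.81) in gained blocks, 1.57 (1.30 to 1.86) in similar blocks and 2.61 (2.48 to 2.74) outside H3K4me1. The Flag-LSD1n ratio was thus lower in similar H3K4me1 blocks than outside H3K4me1, whereas the Pol II ratio was higher there. Flag-LSD1c overlapped 1.87% (1.70 to 2.06) of gained regions at 1 h and 1.34% (1.19 to 1.498) at 0 h.

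WT gained and WT lost regions were called about equally often in LSD1n KO neurons. The KO H3K4me1 lists held 62758 regions at 1 h from 34859557 tags and 33155 at 0 h from 22970480 tags, and depth and time cannot be told apart in them. The KO 1 h list called 55.3% (54.7 to 56.0) of WT gained and 53.3% (52.5 to 54.1) of WT lost regions. The KO 0 h list called 24.1% (23.6 to 24.7) of WT gained and 23.5% (22.8 to 24.2) of WT lost regions. Among regions of 1 kb or wider, the KO 1 h list called 83.2% (81.8 to 84.5) of gained and 83.1% (80.6 to 85.5) of lost regions. At single-peak width it called 42.3% (41.4 to 43.3) of gained and 45.7% (44.6 to 46.7) of lost regions, so the small difference ran the other way. The KO lists thus differed far more between WT regions of different width than between gained and lost regions of 1 width. Kept 1 h regions were called in the KO 1 h list in 88.3% (87.9 to 88.7) of cases and in the KO 0 h list in 63.5% (62.9 to 64.2).

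**Figure D5:**
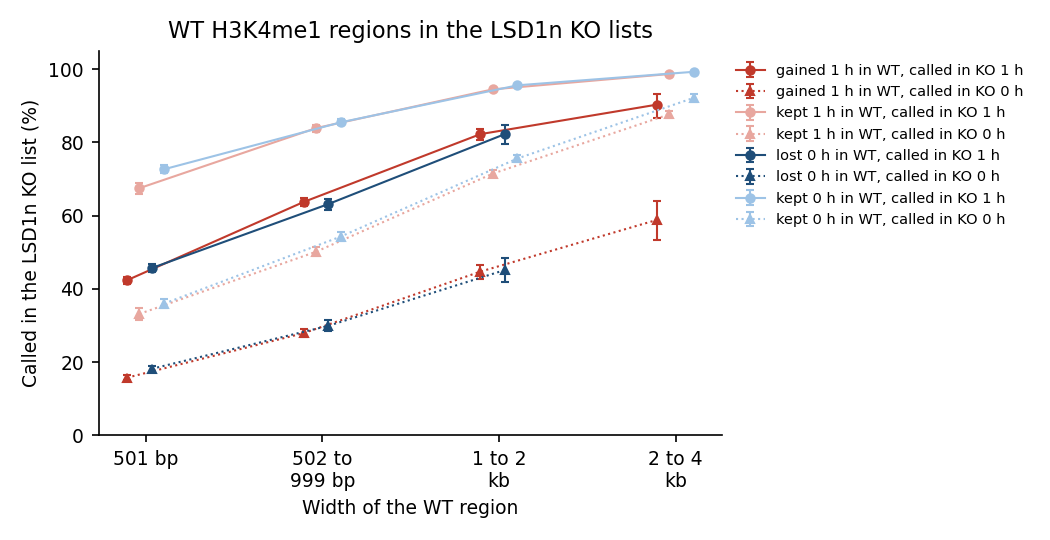
Percent of WT H3K4me1 regions called in the LSD1n KO lists (vertical axis) by width of the WT region (horizontal axis), with exact 95% binomial intervals. Solid lines are the KO 1 h list and dotted lines the KO 0 h list; lost regions of 2 to 4 kb are not drawn. The lines of gained and lost regions run close together at each time, at 82.2% and 82.3% for 1 to 2 kb regions in the KO 1 h list.

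Length changes in KO did not separate the WT classes by direction either. The log2 ratio of KO H3K4me1 length, 1 h over 0 h, was 1.45 inside WT gained blocks and 1.39 inside WT lost blocks, against 1.30 for the whole KO list. It was 1.11 in widened, 0.75 in similar and 0.98 in narrowed WT blocks. In the KO lists 61.4% of 1 h regions were gained and 21.9% of 0 h regions were lost by the same rule.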

How the data were processed

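The deposited lists give region positions on mm9, and Bowtie and HOMER were used, per the submitters' processing notes. The score column holds 1 in every deposited entry and was not used. Per the file headers, histone regions were called with a peak size of 500 bp, at least 1250 bp apart, stitched and centred on nucleosome-free dips; Pol II and LSD1 sites were 200 bp, at least 500 bp apart and 4-fold above the local 10 kb; both used a false discovery rate of 0.001. Headers give tags per library. How replicate cultures were pooled is not given in the sources used here.

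Overlaps, widths, blocks and exact 95% intervals were computed with Python 3.11.15, numpy 2.4.6, scipy 1.17.1 and matplotlib 3.10.9, and tested on simulated lists. Overlaps needed 1 bp. Named regions were the 3 widest gained, lost and kept 1 h regions and the 3 blocks with most length added or removed. Members, classes and lists were chosen with earlier results of these data known. The counts at region centres were added after seeing the data. Planned gene lists and cell markers were not run, since no mm9 annotation was used. Chromosomes X and Y were left out of all but 1 alternative.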

Additional observations from a re-analysis of the deposited data

Results flagged for a closer look

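At 6 of the 15 named regions H3K4me1 was lower at 1 h in WT neurons and higher at 1 h in KO neurons; all 6 were chosen as lost or as having the most removed length in WT, so the WT direction is fixed by the choice, and the difference between genotypes was not tested. The KO 1 h library was also 1.52 times as deep as the KO 0 h library, and its part was not tested. Covered length in KO, 1 h minus 0 h, was higher by 44.5 percentage points of the region at chr12:25917326-25920342, by 8.27 points at chr5:66694413-66697315 and by 30.8 points at chr8:87467507-87470405. It was higher by 30.3 points at chr10:39095175-39110081, where the WT difference was -34.7 points. It was higher by 25.9 points at chr7:19541929-19550020, where the WT difference was -46.1 points, and by 34.3 points at chr12:120444243-120448297, where it was -87.6 points.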

How the results depend on the processing

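With 1 library in each group compared, none could be left out, and no paired analysis was possible because no result comes from a test. Including all chromosomes, or leaving out regions of every target, moved no value beyond its counting interval. On the log2 scale, 1 h over 0 h, region numbers gave 0.21 after merging regions within 5 kb, the length covered 0.44 and the tags falling in regions 0.51. Merging within 5 kb gave 43.2% gained, 33.1% lost and 25.9% widened, and gained regions then overlapped Pol II in 8.33% and LSD1 in 9.65%. Taking equal numbers of the widest regions, as many as 50% of the 0 h list, gave 40.7% gained, 38.7% lost and 13.8% widened. Gained regions then overlapped H3K4me2 in 30.7%, Pol II in 11.8%, LSD1 in 12.8% and the KO 1 h list in 85.6%; with equal numbers the number ratio has no value. An overlap of 50% gave 69.3% gained, 53.7% lost and 20.3% widened, with gained regions overlapping H3K4me2 in 8.88%, Pol II in 4.36%, LSD1 in 5.60% and KO in 38.9%. Asking for no region within 5 kb gave 27.4% gained and 17.4% lost. Widened blocks were 31.4% at a 1.5-fold limit and 18.9% by the widest single region. Gained regions' midpoints met H3K4me2 in 9.28%, Pol II in 5.81%, LSD1 in 7.34% and KO in 39.6%. Gained regions of at least 1 kb met them in 29.1%, 11.0%, 12.4% and 83.2%. The Pol II list labelled LSD1n KO gave 6.17%, Flag-LSD1n 1.55% and Flag-LSD1c 1.87%. Chosen after seeing the data, 4 other settings left the Pol II centre ratio of 0.71 within its interval. The LSD1 centre ratio of 0.08 became 0.28 in kept 1 h regions of 2 to 4 kb and 0.42 with equal LSD1 site numbers. It became 1.11 with LSD1 in LSD1n WT, of another title prefix and label, as the 0 h list. Where a value moved, the cause was not tested, except that wider regions overlap more by construction. The part of depth in the H3K4me2, LSD1 and Flag shares was not tested.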

Other observations

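H4K20me1, a mark of silenced and of some transcribed chromatin, was less often called at lost than at kept 0 h H3K4me1 regions of narrow width. The 0 h H4K20me1 list overlapped 13.8% (13.1 to 14.6) of lost and 18.1% (17.1 to 19.1) of kept 0 h regions of single-peak width. At 1 to 2 kb it overlapped 25.2% (22.4 to 28.2) of lost and 25.6% (24.5 to 26.7) of kept 0 h regions. The 2 H4K20me1 lists of 1 h held 28248 regions (replicate 1) and 2769 regions (replicate 2), and gave shares far apart. Among 1 to 2 kb regions replicate 1 overlapped 24.4% (22.8 to 26.1) of gained and 23.2% (22.3 to 24.2) of kept 1 h regions, and replicate 2 overlapped 2.48% (1.92 to 3.13) of gained and 3.34% (2.95 to 3.77) of kept 1 h regions.

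H3K36me3, found over transcribed gene bodies, overlapped 4.58% (3.82 to 5.44) of gained and 5.89% (5.38 to 6.44) of kept 1 h regions of 1 to 2 kb at 1 h. At 0 h it overlapped 1.98% (1.18 to 3.11) of lost and 4.86% (4.35 to 5.40) of kept 0 h regions of that width.

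In windows of 100 kb, 10113 of the 14623 with any H3K4me1 covered more at 1 h in WT and 4096 covered less. KO covered more at 1 h in 91.3% of the windows where WT covered more and in 88.0% of those where WT covered less.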
